A study of Mus musculus with 17 samples.

Results

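Potassium channel genes were followed across the 17 cortex libraries of the series. All rows of the count table whose gene symbol begins with Kcn were taken, without symbols that end in os or hold -ps, which gave 97 of 56953 rows. Of these, 93 encode channel-forming, modifier or auxiliary subunits in 20 subfamilies (named by the letters between Kcn and the first digit), Kcnrg encodes a regulator of potassium channels, and 3 are noncoding RNAs that the rule also keeps, Kcnq1ot1, Kcnmb4os1 and Kcnmb4os2. Expression was above the low-count filter for 87 members. The other 10 could not be tested: Kcna7, Kcne1 and Kcnj1 had 0 counts in all 17 libraries, and Kcna10, Kcnk15, Kcnk16, Kcnk18, Kcnk7, Kcnmb3 and Kcnv2 had too few.

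RNA came from the prefrontal cortex of mice on the B6C3F1/J background, kept on regular chow. They were aged 8 months by the study's methods, while its figure legend for these data gives a higher age. The 5 WT mice carried no transgene. The 6 hTau mice were PS19 mice, which express mutant human Tau from the mouse Prnp promoter, so that the transgene follows the activity of that promoter across cell types and is not restricted to one of them. The 6 CgA-KO/hTau mice carried the same transgene and congenitally lacked chromogranin A (gene Chga) in the whole body. Mice lacking chromogranin A without the transgene were not analysed here, so that mice with and without Chga can be compared only on the transgenic background. Levels of tissue markers also differed between CgA-KO/hTau and hTau, as given below.

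Potassium channels let potassium leave or enter the cell and thereby set the resting potential, the shape of the action potential and the firing rate of neurons. Voltage-gated (Kv) channels are tetramers of channel-forming subunits (Kcna, Kcnb, Kcnc, Kcnd), which can be joined by electrically silent modifier subunits (Kcnf, Kcng, Kcns, Kcnv) and by auxiliary subunits (Kcnab, Kcne, Kcnip). Inward rectifiers (Kcnj) pass potassium near rest, some under the control of G proteins or of ATP. Two-pore domain channels (Kcnk) carry the background leak, and calcium-activated channels (Kcnma, Kcnn) follow the calcium that enters during firing. In cortex, Kv3 channels of the Kcnc genes are known for the brief spikes of fast-spiking, parvalbumin-positive interneurons.

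Total counts per library ranged from 8838334 (WT replicate 4) to 227651681. Chga had 0 counts in all 6 CgA-KO/hTau libraries and a mean of 168 CPM (TMM-normalized counts per 1e6 counts of the library) in hTau. The cortex label held with reservations. The summed level of 20 striatum markers was 1520 to 4935 CPM in WT, 506.5 to 535.9 CPM in hTau, 841 to 3470 CPM in CgA-KO/hTau replicates 1 to 3 and 408 to 499 CPM in replicates 4 to 6. Of these markers, 18 of 20 passed the test as higher in WT than in hTau and 13 of 20 as higher in CgA-KO/hTau than in hTau, with Isl1 and Lhx8 at 0 in all hTau libraries. The parvalbumin marker Pvalb was 14.5 to 37.8 CPM in WT, 61.4 to 75.9 CPM in hTau and 21.5 to 47.6 CPM in CgA-KO/hTau. Markers of other interneurons summed to 1642 to 1887 CPM in WT, 1698 to 1945 CPM in hTau, 950.7 to 994.8 CPM in CgA-KO/hTau replicates 1 to 3 and 1563 to 1578 CPM in replicates 4 to 6, with 1 of 10 called higher in WT and 4 of 10 called lower in CgA-KO/hTau than in hTau. Oligodendrocyte markers summed to 1286 to 1864 CPM in hTau, 2621 to 3053 CPM in CgA-KO/hTau replicates 1 to 3 and 1588 to 1699 CPM in replicates 4 to 6, with 1 of 8 called higher in CgA-KO/hTau. Of 9 tested deep-layer neuron markers, 4 were called higher in WT and 1 in CgA-KO/hTau than in hTau. CgA-KO/hTau replicates 1 to 3 had striatum sums of 3407, 841.4 and 3470 CPM. They were also the libraries of that genotype that held Ddx3y, a gene of the Y chromosome. Between them and replicates 4 to 6, sex and the striatum signal therefore cannot be told apart. WT and hTau likewise held Ddx3y in replicates 1 to 3. Striatum markers summed to 1858 to 4935 CPM in these WT libraries and 1520 to 4606 CPM in replicates 4 and 5. In hTau they summed to 510.5 to 521.2 CPM in replicates 1 to 3 and 506.5 to 535.9 CPM in replicates 4 to 6. In WT replicate 5 the choroid plexus transcript Ttr reached 1023 CPM. These values move with several of the results, and their part in them was not tested beyond the fits named beside each result. Some of these fits hold a score of the striatum markers as a covariate. WT and hTau did not overlap in these markers, so such a fit cannot separate striatum content from genotype for WT over hTau. In bulk tissue, fewer cells of a type and less RNA per cell cannot be told apart.

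The most abundant member per kb of exon was Kcnab2, the Kv beta 2 subunit, with a mean over genotypes of 66.9 CPM per kb. It was followed by Kcnj4 (an inward rectifier, 49.3 CPM per kb), Kcna2 (Kv1.2, 46.3 CPM per kb) and Kcnk1 (a two-pore domain channel, 42.1 CPM per kb). Kcnip3, a Kv4 interacting protein, stood at 39.7 CPM per kb and Kcnv1, a modifier, at 35.6 CPM per kb. In the Kcnq, Kcnma and Kcnf subfamilies the leading genes were Kcnq3 (27.3 CPM per kb), Kcnma1 (26.8 CPM per kb) and Kcnf1 (28.7 CPM per kb). Kcnh7 led the Kcnh subfamily at 20.9 CPM per kb, and Kcnmb4 and Kcnt1 led theirs at 9.48 and 8.36 CPM per kb. Lower levels were found for the leading genes of Kcns (Kcns1, 8.19 CPM per kb), Kcng (Kcng1, 7.23 CPM per kb) and Kcnn (Kcnn2, 3.57 CPM per kb). The leading genes of Kcne, Kcnu and Kcnrg stayed under 1 CPM per kb.

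**Figure D1:**
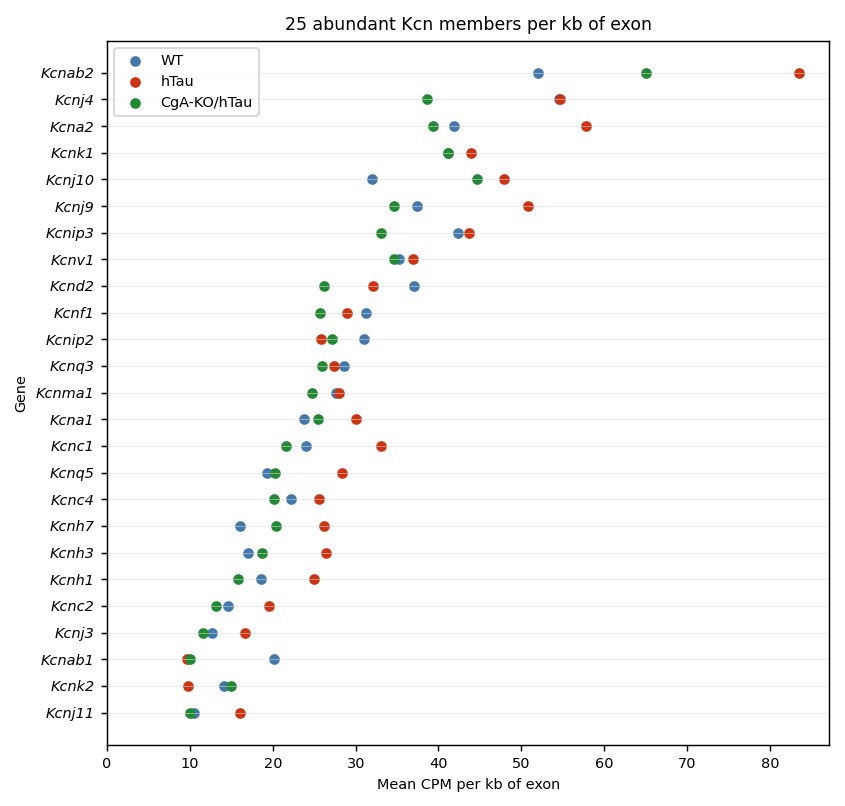
Mean level of 25 abundant members per kb of exon (x axis, CPM per kb), with 1 point for each genotype. The hTau point lies to the right of the CgA-KO/hTau point for most of these genes, as for Kcnab2 (83.5 against 65.1 CPM per kb), while Kcnk2 and Kcnab1 have their lowest mean in hTau.

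To ask which potassium channel genes differed with the tau transgene, WT was compared with hTau. Of the 87 tested members, 8 were called higher and 11 lower in WT (edgeR's quasi-likelihood test, Benjamini-Hochberg adjusted p under 0.05), where 3.95% and 1.95% of all 23062 tested genes were called in these directions (5.9% together). All WT libraries stood above all hTau libraries for 6 members and below them for 14, against 4.39% and 5.13% of all genes. The median log2 fold change of WT over hTau was -0.13 over the members and -0.01 over all genes, and 53 of 87 members (60.9%) had a negative value against 51.2% of all genes. Without WT replicate 5, 1 member was called lower and 4 were called higher, and the shares of all genes called fell too, to 0.56% and 2.23%. Without WT replicate 3, WT replicate 4, or hTau replicates 2 or 4, lower calls numbered 7, 7, 5 and 6 (1.73%, 1.52%, 1.04% and 1.11% of all genes), and without any one of hTau replicates 2 to 6 higher calls numbered 5 (2.96% to 3.28% of all genes). With hTau replicates 4 to 6, and CgA-KO/hTau replicates 1 and 3, averaged because they were unusually alike, 0 members were called lower in edgeR (18 at an unadjusted p under 0.05, against 6.92% of all genes) and 4 higher, where 0.339% and 1.58% of all genes were called.

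To ask which members differed between transgenic mice without and with Chga, CgA-KO/hTau was compared with hTau. Of the 87 tested members, 4 were called higher and 13 lower, where 5.5% and 4.22% of all genes were called (9.72% together). The libraries did not overlap for 1 member on the higher and 14 on the lower side, against 2.84% and 3.79% of all genes. The median log2 fold change of CgA-KO/hTau over hTau was -0.29 over the members and 0.03 over all genes, and 62 of 87 members (71.3%) had a negative value against 47.3% of all genes. Lower calls numbered 5 without CgA-KO/hTau replicate 2, 6 without replicate 1, 7 without replicate 3 and 21 without replicate 4, and the share of all genes called lower moved with them, at 1.76%, 2.03%, 2.45% and 8.15%. They numbered 7 or 8 without any one of hTau replicates 2 to 6 (1.97% to 2.68% of all genes), and 20 without WT replicate 4 (7.31%). Higher calls numbered 2 without hTau replicates 2, 3, 5 or 6 (2.83% to 3.49% of all genes) or without CgA-KO/hTau replicate 2 (2.69%), and 7 without CgA-KO/hTau replicate 4 (9.11%). With the unusually alike libraries averaged in the same way, 0 members were called in either direction in edgeR. There, 0.46% and 0.237% of all genes were called higher and lower. At an unadjusted p under 0.05 there were 6 higher and 23 lower members, against 10.1% and 7.89% of all genes. Calls of this comparison described below as kept in all 17 fits without 1 library were thus lost there. Both comparisons use the same 6 hTau libraries as reference and are therefore not independent of each other.

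**Figure D2:**
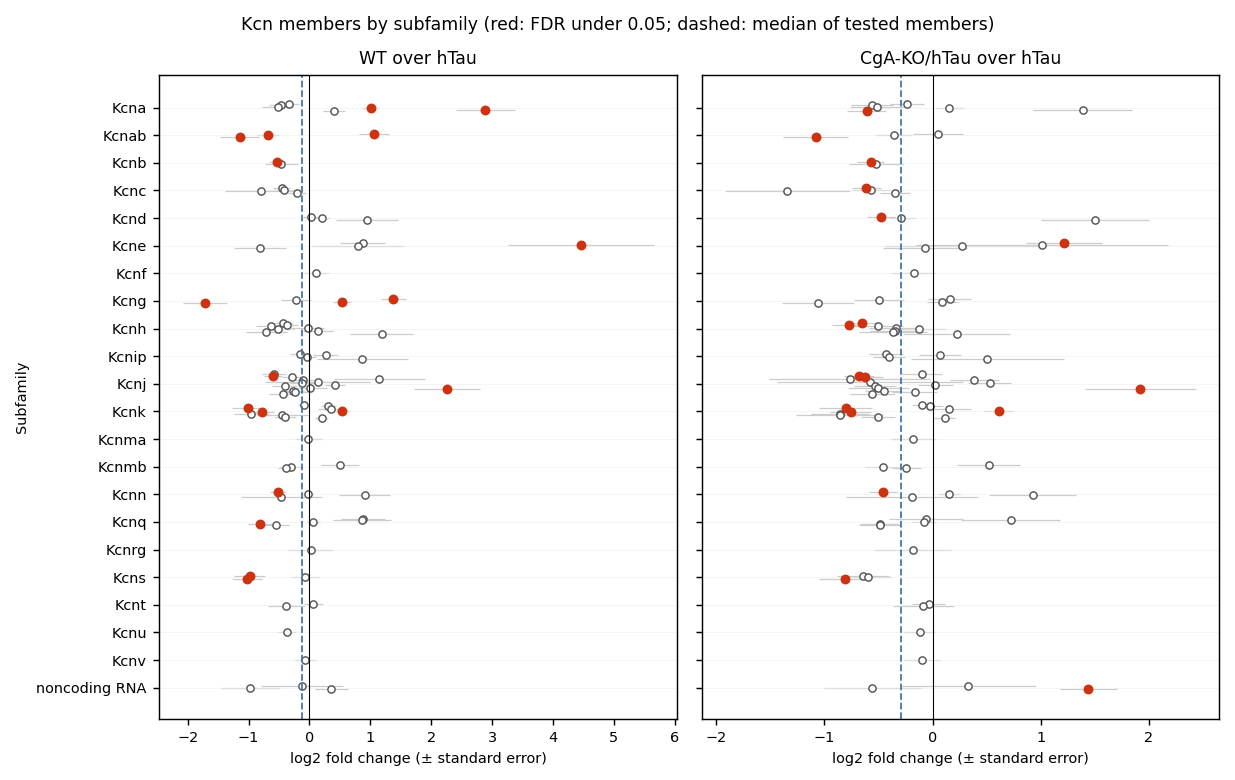
log2 fold change (x axis, with standard error) of each of the 87 tested members, 1 row for each subfamily, for WT over hTau (left) and CgA-KO/hTau over hTau (right). Filled red points passed an adjusted p under 0.05 and open points did not. The dashed lines mark the member medians of -0.13 and -0.29, and the Kcnc and Kcns rows lie wholly to the left of 0 in both panels.

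Subfamilies differed in how their members spread. All tested members of Kcnc (4) and Kcns (3) had lower means in WT and in CgA-KO/hTau than in hTau, with median log2 fold changes of -0.44 and -0.98 for WT over hTau and of -0.59 and -0.64 for CgA-KO/hTau over hTau. Kcnh channels followed with 6 of 8 and 7 of 8 negative values. The 14 tested inward rectifiers had medians of -0.18 and -0.48, and the 10 tested two-pore domain genes medians of -0.25 and -0.30. Kcna and Kcng were split, with members called in either direction for WT over hTau in Kcng, and Kcnip had no call in either comparison among 4 tested members. With 1 to 14 tested genes in each, these medians describe the members and carry no test.

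The modifier subunits, which are silent on their own, moved in different directions. Kcns3 (Kv9.3) read 5.96, 5.89, 3.84, 4.91 and 2.87 CPM in WT, 8.29 to 10.1 CPM (median 9.67) in hTau and 3 to 8.05 CPM (median 5.37) in CgA-KO/hTau, so that neither group overlapped hTau. Its log2 fold change was -1.03 ± 0.25 for WT over hTau (edgeR adjusted p = 0.021) and -0.81 ± 0.23 for CgA-KO/hTau over hTau (adjusted p = 0.0369), kept in 15 and 9 of 17 fits without 1 library, with adjusted p up to 0.0733 and 0.082. With the striatum score as a covariate the first value was 0.01 and the second -0.42, neither of them called. Kcns1 (Kv9.1) was 8.92 to 24.8 CPM in WT against 28.9 to 34.9 CPM in hTau, a log2 fold change of -0.98 ± 0.26 (edgeR adjusted p = 0.0286) that was kept in 12 of 17 fits without 1 library (adjusted p up to 0.0892) and came to -0.04 with the striatum score. In CgA-KO/hTau it was 11.7 to 28.8 CPM and was not called (adjusted p = 0.0906). Kcng4 (Kv6.4) was lowest in WT at 4.17, 5.53, 3.37, 3.88 and 0.599 CPM, against 6.72 to 13.8 CPM (median 12.8) in hTau, with a log2 fold change of -1.71 ± 0.36 (edgeR adjusted p = 0.00881) that was kept in all 17 fits without 1 library.

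Kcng1 (Kv6.1) went the other way. Its WT libraries read 32.8, 61, 40.9, 46.2 and 88.7 CPM, above all hTau libraries (18.1 to 23.9 CPM, median 20.6). The log2 fold change of WT over hTau was 1.38 ± 0.21 (edgeR adjusted p = 8e-04), and the call was kept under all 30 alternatives, with values of 0.89 to 1.51. CgA-KO/hTau libraries lay at 17.5 to 30 CPM (median 21.4), close to hTau and below all WT libraries, for a log2 fold change over WT of -1.22 ± 0.21 (edgeR adjusted p = 0.00298). Kcng3 (Kv6.3) was 4.79 to 6.54 CPM in WT and 3.35 to 4.14 CPM in hTau, a log2 fold change of 0.54 ± 0.15 (edgeR adjusted p = 0.0372) that was kept in 8 of 17 fits without 1 library, with adjusted p up to 0.0934.

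Among the Kv1 genes, Kcna4 encodes Kv1.4, a fast-inactivating A-type subunit found in axons (chr2:107290639-107298502, plus strand, GRCm38). Its WT libraries read 41.9, 42.3, 64.4, 57.6 and 62.4 CPM, all above the hTau libraries (24.5 to 30.1 CPM, median 26.5) and above the CgA-KO/hTau libraries (21.2 to 34.3 CPM, median 30.5). WT over hTau gave a log2 fold change of 1.005 ± 0.14 (edgeR adjusted p = 4.39e-04) and CgA-KO/hTau over WT one of -0.86 ± 0.14 (adjusted p = 0.00192). Both calls were kept under all 30 alternatives. Kcna5 (Kv1.5) read 7.78, 7.12, 14.1, 10 and 13.1 CPM in WT against 0.883 to 1.96 CPM in hTau (median 1.41), a log2 fold change of 2.89 ± 0.49 (edgeR adjusted p = 0.00189). In CgA-KO/hTau it was 7.69, 2.29 and 7.93 CPM in replicates 1 to 3 and 1.27 to 1.41 CPM in replicates 4 to 6, the same order of libraries as the striatum markers. With the striatum score as a covariate the WT value was 0.88 and not called (adjusted p = 0.0793).

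Because Kcna4 and Kcna5 had the clearest WT excess of the Kv1 genes, the 250 bases before their RefSeq start sites are shown, 5′ to 3′ in the direction of the gene (GRCm38.p6). The window of Kcna4 is chr2:107290339-107290588 on the plus strand and that of Kcna5 chr6:126535556-126535805 on the minus strand. Capitals mark a GC box, GGGCGG or its reverse complement CCGCCC, searched on both strands. Neither window overlaps an annotated exon of its gene. They differ in base composition, with 65.2% G and C and 14 CG dinucleotides before Kcna4, and 53.2% and 3 before Kcna5.
Kcna4: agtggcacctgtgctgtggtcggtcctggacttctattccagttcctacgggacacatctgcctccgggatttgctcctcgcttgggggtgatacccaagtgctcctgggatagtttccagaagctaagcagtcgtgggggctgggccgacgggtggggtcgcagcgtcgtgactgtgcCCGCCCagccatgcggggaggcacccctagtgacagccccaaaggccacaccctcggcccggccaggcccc
Kcna5: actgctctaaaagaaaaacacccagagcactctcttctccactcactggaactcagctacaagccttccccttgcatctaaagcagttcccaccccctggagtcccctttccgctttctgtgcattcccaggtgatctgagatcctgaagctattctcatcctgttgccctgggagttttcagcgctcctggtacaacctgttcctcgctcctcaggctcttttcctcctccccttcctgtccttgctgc

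Kcna6 (Kv1.6) was lower in CgA-KO/hTau, at 27.7 to 46.1 CPM (median 31.4), than in hTau, at 45.4 to 57.4 CPM (median 50.5), and than in WT, at 112, 57.8, 50.8, 70.3 and 46.9 CPM. The highest CgA-KO/hTau library, replicate 4, overlapped the lowest hTau libraries. The log2 fold changes were -0.61 ± 0.18 over hTau (edgeR adjusted p = 0.0411), kept in 7 of 17 fits without 1 library (adjusted p up to 0.0922), and -1.01 ± 0.19 over WT (adjusted p = 0.00532), kept in all 17. An antisense gene, Gm26673, covers 39.6% of the exon bases of Kcna6, and whether counting used strand is not given in the sources used here. The other Kv1 members Kcna1, Kcna2 and Kcna3 were not called in a comparison with hTau, with log2 fold changes of -0.34, -0.47 and -0.52 for WT and of -0.24, -0.56 and -0.52 for CgA-KO/hTau.

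The Kv beta subunits, which bind Kv1 channels inside the cell, divided by gene. Kcnab3 read 40.9, 28.7, 20.7, 24.4 and 7.94 CPM in WT and 14.1 to 36.1 CPM (median 26.7) in CgA-KO/hTau, against 49.4 to 69.7 CPM (median 51.3) in hTau. Neither group overlapped hTau. The log2 fold changes were -1.14 ± 0.32 (edgeR adjusted p = 0.0426) and -1.08 ± 0.30 (adjusted p = 0.0326), kept in 6 and 9 of 17 fits without 1 library, with adjusted p up to 0.0917 and 0.0755. Over all 30 alternatives the WT value ranged from -1.41 to -0.07 and the CgA-KO/hTau value from -1.22 to -0.65, with the calls kept in 15 and 18. Kcnab2 was lower in WT at 341, 334.3, 324.7, 192.5 and 257.1 CPM than in hTau at 402.1 to 530.9 CPM, a log2 fold change of -0.68 ± 0.18 (edgeR adjusted p = 0.0277) kept in 13 of 17 fits without 1 library (adjusted p up to 0.0889). In CgA-KO/hTau it was 376.8 to 425.1 CPM in 5 libraries and 197.4 CPM in replicate 6, and the comparison was not called. Kcnab1 was higher in WT at 144.6, 159.9, 147.4, 131.2 and 283.2 CPM than in hTau at 51 to 113.9 CPM (log2 fold change 1.06 ± 0.24, edgeR adjusted p = 0.0141), and the call was lost without WT replicate 5 (adjusted p = 0.0592).

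Kcnc1 encodes Kv3.1, a high-threshold channel of fast-spiking cells (chr7:46396497-46438704, plus strand, GRCm38). It was 270.6, 234.9, 214.4, 212.3 and 204.3 CPM in WT, 289.5 to 341.2 CPM (median 312) in hTau and 157.1 to 266.8 CPM (median 193.5) in CgA-KO/hTau. All CgA-KO/hTau libraries and all WT libraries lay below hTau. CgA-KO/hTau over hTau was called, with a log2 fold change of -0.61 ± 0.13 (edgeR adjusted p = 0.0111) that was kept in all 17 fits without 1 library, and WT over hTau was not, at -0.46 (adjusted p = 0.0636). Kcnc2 and Kcnc4 had log2 fold changes of -0.56 and -0.35 for CgA-KO/hTau over hTau, neither of them called. In the same libraries 4 of 9 parvalbumin interneuron markers, Pvalb, Syt2, Vamp1 and Cplx1, were called lower than in hTau in each comparison. Another marker of that list, Tac1, which striatal neurons are also known to express, was called higher in WT than in hTau, with a log2 fold change of 2.11 (edgeR adjusted p = 0.0182), and was not called in CgA-KO/hTau, at 1.29 (adjusted p = 0.0921). The summed level over the 9 genes was 963.5 to 1227 CPM in WT, 1486 to 1803 CPM in hTau, 854 to 983 CPM in CgA-KO/hTau replicates 1 to 3 and 1238 to 1373 CPM in replicates 4 to 6, and their part in the Kcnc1 result was not tested.

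Of the Kv4 genes, which carry somatodendritic A-type current, Kcnd1 read 6.53 to 9.98 CPM (median 8.51) in CgA-KO/hTau and 10.8 to 13 CPM (median 11.7) in hTau, with no overlap. The log2 fold change was -0.48 ± 0.13 (edgeR adjusted p = 0.028), kept in 11 of 17 fits without 1 library (adjusted p up to 0.0715). WT libraries lay at 12.9, 11.5, 12.4, 8.21 and 13.8 CPM, and CgA-KO/hTau over WT was -0.50 ± 0.13 (adjusted p = 0.0342), also kept in 11 (adjusted p up to 0.113). Kcnd2 (Kv4.2), the more abundant Kv4 gene, was 97.3 to 162.5 CPM in CgA-KO/hTau, 156.1 to 177.1 CPM in hTau and 152.5 to 237.1 CPM in WT. It was called only for CgA-KO/hTau over WT, at -0.50 ± 0.13 (edgeR adjusted p = 0.0307), and that call was lost without WT replicates 3 or 5 or any of CgA-KO/hTau replicates 1 to 3 (adjusted p up to 0.088).

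The Kcnh genes encode ether-a-go-go channels, which activate slowly or reopen on repolarization. Kcnh1 (EAG1) was 174.9 to 210 CPM (median 177) in hTau and 84.1 to 151.3 CPM (median 116.2) in CgA-KO/hTau, with no overlap. WT libraries read 164.9, 124.1, 147, 139.3 and 104 CPM, also below hTau but not called. The log2 fold change of CgA-KO/hTau over hTau was -0.66 ± 0.15 (edgeR adjusted p = 0.0138). Kcnh2 (ERG1) fell from 34.8 to 40.2 CPM (median 37.4) in hTau to 18 to 30.4 CPM (median 19.9) in CgA-KO/hTau, at -0.77 ± 0.16 (edgeR adjusted p = 0.00992). Both calls were kept in all 17 fits without 1 library and lost with the unusually alike libraries averaged. Kcnq3, a subunit of the M-current channel and the most abundant Kcnq gene per kb, had log2 fold changes of 0.07 and -0.08.

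**Figure D3:**
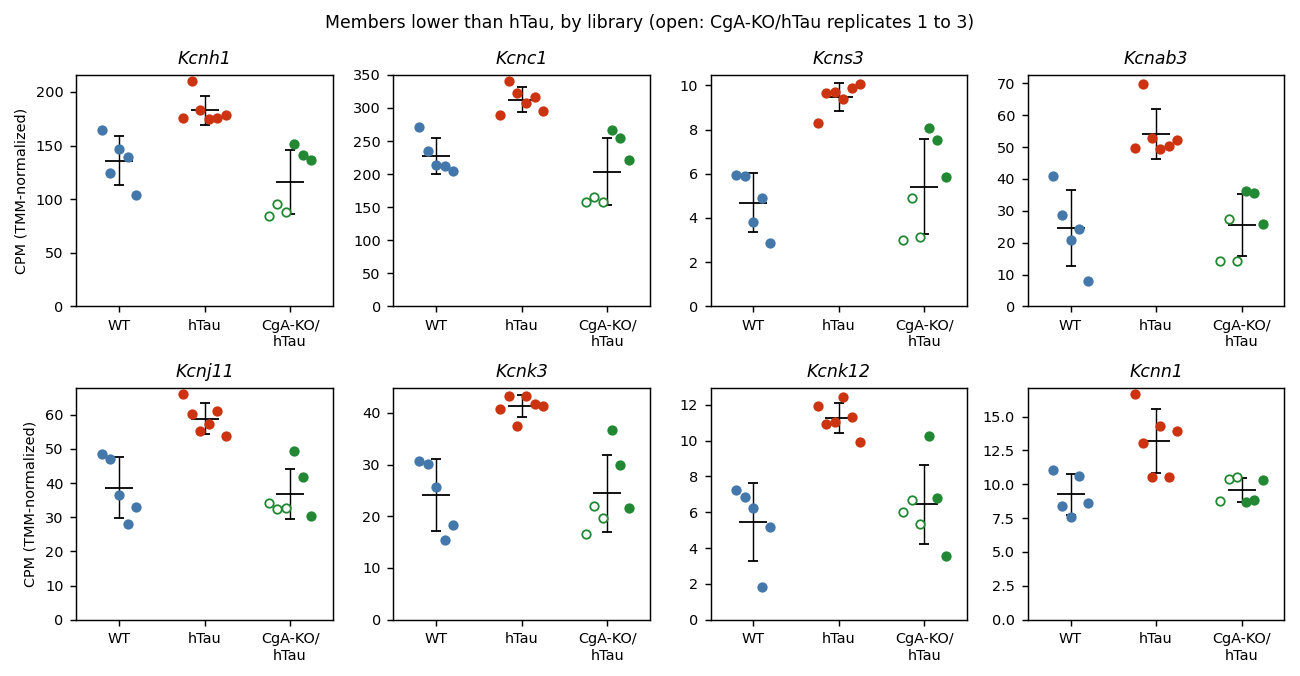
TMM-normalized CPM (y axis, from 0) in each library for Kcnh1, Kcnc1, Kcns3, Kcnab3, Kcnj11, Kcnk3, Kcnk12 and Kcnn1, with the mean and SD of each genotype in black. Open symbols are CgA-KO/hTau replicates 1 to 3, which for Kcnc1 (157.1 to 165.8 CPM) lie further below hTau than replicates 4 to 6.

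Kcnj11 encodes Kir6.2, the pore of the ATP-sensitive potassium channel (chr7:46093953-46100764, minus strand, GRCm38). It read 48.6, 47, 36.6, 28.1 and 33 CPM in WT, 53.7 to 66 CPM (median 58.6) in hTau and 30.5 to 49.3 CPM (median 33.4) in CgA-KO/hTau. No WT or CgA-KO/hTau library overlapped hTau. The log2 fold changes were -0.60 ± 0.15 for WT over hTau (edgeR adjusted p = 0.0206), lost without WT replicate 5 (adjusted p = 0.0736), and -0.68 ± 0.14 for CgA-KO/hTau over hTau (adjusted p = 0.00825), kept in all 17 fits without 1 library. Abcc8, the sulfonylurea receptor that forms this channel together with Kir6.2, had means of 18.8 CPM in WT, 37.8 CPM in hTau and 20.6 CPM in CgA-KO/hTau, with log2 fold changes of -1.0 (edgeR adjusted p = 0.0204) and -0.88 (adjusted p = 0.0247).

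Other inward rectifiers changed less uniformly. Kcnj12 (Kir2.2) was 6.24 to 12.7 CPM (median 8.55) in CgA-KO/hTau and 12.3 to 16.4 CPM (median 13.9) in hTau, overlapping only through CgA-KO/hTau replicate 4. Its log2 fold change was -0.62 ± 0.16 (edgeR adjusted p = 0.0248), lost without hTau replicate 5 or any of CgA-KO/hTau replicates 1 to 3 (adjusted p up to 0.0596). Kcnj5 (GIRK4) was scarce, with 1.62, 0.799, 1.07, 1.14 and 1.18 CPM in WT and 0.516 to 1.47 CPM in CgA-KO/hTau. In hTau 5 libraries lay between 0.0967 and 0.179 CPM and replicate 1 at 0.947 CPM, inside the range of the other genotypes. Kcnj5 was called higher at 2.26 ± 0.54 in WT (edgeR adjusted p = 0.0173, kept in all 17 fits without 1 library) and at 1.92 ± 0.51 in CgA-KO/hTau (adjusted p = 0.0271, kept in 11, adjusted p up to 0.0682). Kcnj4, Kcnj9 and the astrocytic Kcnj10, the most abundant inward rectifiers per kb, were not called, with log2 fold changes of 0.00, -0.44 and -0.58 for WT and of -0.50, -0.55 and -0.10 for CgA-KO/hTau. The last value averages unlike libraries. Kcnj10 was 290.4 to 344.9 CPM in CgA-KO/hTau replicates 1 to 3 and 153.2 to 185.7 CPM in replicates 4 to 6, against 192.9 to 295.2 CPM in hTau.

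Two-pore domain channels were called in both directions. Kcnk3 (TASK-1, an acid-sensitive leak channel) read 30.8, 30.2, 25.6, 15.4 and 18.3 CPM in WT, 37.5 to 43.4 CPM (median 41.5) in hTau and 16.5 to 36.7 CPM (median 21.8) in CgA-KO/hTau, without overlap with hTau in either group. The log2 fold changes were -0.77 ± 0.20 (edgeR adjusted p = 0.0271) and -0.76 ± 0.19 (adjusted p = 0.0201), kept in 13 and 16 of 17 fits without 1 library, with adjusted p up to 0.0927 and 0.0506. Over all 30 alternatives the WT value ranged from -0.88 to -0.27 and the CgA-KO/hTau value from -0.90 to -0.50, with the calls kept in 22 and 25. Kcnk12 (THIK-2) read 7.23, 6.87, 6.22, 1.83 and 5.17 CPM in WT and 3.55 to 10.2 CPM in CgA-KO/hTau against 9.94 to 12.4 CPM in hTau. Its log2 fold changes were -1.01 ± 0.26 (edgeR adjusted p = 0.0286) and -0.80 ± 0.25 (adjusted p = 0.0469), kept in 13 and 3 of 17 fits without 1 library, with adjusted p up to 0.0838 and 0.0933. Kcnk2 (TREK-1, a mechano- and lipid-gated leak channel) was higher than hTau, at 44.4 to 54.1 CPM (median 46.8), in all CgA-KO/hTau libraries (61.3 to 95.4 CPM, median 65.8) and overlapped in WT (72.8, 61.5, 86.8, 50.4 and 76.9 CPM). CgA-KO/hTau over hTau was 0.61 ± 0.14 (edgeR adjusted p = 0.0121), kept in all 17 fits without 1 library and at 0.35 with the striatum score (adjusted p = 0.034). WT over hTau was 0.53 ± 0.14 (adjusted p = 0.0339), kept in 9 of 17 such fits (adjusted p up to 0.101), and -0.02 with the striatum score. An antisense gene covers 12.2% of the exon bases of Kcnk2.

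Of the calcium-activated channels, only Kcnn1 (SK1, a small-conductance channel of the afterhyperpolarization) was called. It read 11.1, 8.41, 7.57, 10.6 and 8.65 CPM in WT and 8.69 to 10.51 CPM in CgA-KO/hTau, against 10.52 to 16.7 CPM (median 13.5) in hTau. The groups were separated narrowly in CgA-KO/hTau and overlapped in WT. The log2 fold changes were -0.52 ± 0.14 (edgeR adjusted p = 0.0325) and -0.46 ± 0.13 (adjusted p = 0.0341), kept in 10 and 9 of 17 fits without 1 library, with adjusted p up to 0.098 and 0.0768. Kcnma1, the large-conductance (BK) channel gene, had log2 fold changes of -0.02 and -0.18. It was 246.4 to 316.2 CPM in CgA-KO/hTau replicates 1 to 3 and 446.9 to 655.3 CPM in replicates 4 to 6, against 433.6 to 571.4 CPM in hTau.

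Kcnk12 and Kcnn1 were called lower than hTau in each comparison, and their promoter windows are shown as 2 examples. Both windows are 250 bases that end at the RefSeq start site (GRCm38.p6), at chr17:87797995-87798244 and chr8:70863259-70863508 on the minus strand, printed 5′ to 3′ in the direction of the gene with a GC box in capitals. They held 64.8% and 63.6% G and C, with 16 and 10 CG dinucleotides, and only the Kcnk12 window held a GC box. The window of Kcna4, called higher in WT, was much like that of Kcnk12, with 65.2%, 14 CG dinucleotides and a GC box. A relation of these windows to the direction of a call was not tested.
Kcnk12: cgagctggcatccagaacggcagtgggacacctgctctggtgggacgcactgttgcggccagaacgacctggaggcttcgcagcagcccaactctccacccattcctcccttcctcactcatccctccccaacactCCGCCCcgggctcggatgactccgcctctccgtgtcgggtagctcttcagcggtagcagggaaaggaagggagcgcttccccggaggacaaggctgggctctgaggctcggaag
Kcnn1: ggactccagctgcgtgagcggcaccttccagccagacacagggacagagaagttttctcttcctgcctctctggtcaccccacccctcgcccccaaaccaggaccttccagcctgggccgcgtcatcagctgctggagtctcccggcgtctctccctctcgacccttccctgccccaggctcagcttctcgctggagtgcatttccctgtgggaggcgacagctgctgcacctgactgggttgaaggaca

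RefSeq listed 96 such windows for 71 members. A GC box was present in 44.8% of them and in 32.7% of all 32851 windows of the same length, and the median share of G and C was 58.6% against 52.4%. The letters TATAAA on either strand occurred in 3.13% of member windows and 12.4% of all windows. The cyclic AMP response element TGACGTCA occurred in none of the 96 windows and in 1.55% of all windows. A match is a string of letters and does not show a bound site.

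Auxiliary Kcne genes were scarce. Kcne2, whose protein is known in the choroid plexus, was called higher in WT (log2 fold change 4.46 ± 1.20, edgeR adjusted p = 0.0341), but its WT libraries read 0.174, 0.0615, 0.138, 0 and 5.8 CPM, so that the value rests on replicate 5, the library with 1023 CPM of Ttr. Without that replicate the adjusted p was 0.707. Kcne1l (KCNE5) was 2.8, 1.93 and 3.73 CPM in CgA-KO/hTau replicates 1 to 3, 0.722 to 1.13 CPM in replicates 4 to 6 and 0.455 to 1.09 CPM in hTau. The log2 fold change over hTau was 1.21 ± 0.35 (edgeR adjusted p = 0.0387) with all 6 libraries, a call kept in 9 of 17 fits without 1 library (adjusted p up to 0.102), and 0.20 with replicates 4 to 6 alone.

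Kcnq1ot1 is an imprinted long noncoding RNA transcribed against Kcnq1 (chr7:143203458-143296549, minus strand, GRCm38). It read 70.3, 87.9 and 68.9 CPM in CgA-KO/hTau replicates 1 to 3 and 21.2, 31.6 and 47 CPM in replicates 4 to 6. In hTau it was 16.6 to 22.1 CPM (median 20.4), and in WT 21.5, 26.8, 19.4, 35.4 and 26.2 CPM. Only the lowest CgA-KO/hTau library lay within the hTau range. The log2 fold change over hTau was 1.44 ± 0.26 (edgeR adjusted p = 0.00463), kept in all 17 fits without 1 library, and it was 0.71 (adjusted p = 0.104) with replicates 4 to 6 alone. Over WT it was 1.08 ± 0.28 (adjusted p = 0.026), kept in 11 of 17 such fits (adjusted p up to 0.0661).

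**Figure D4:**
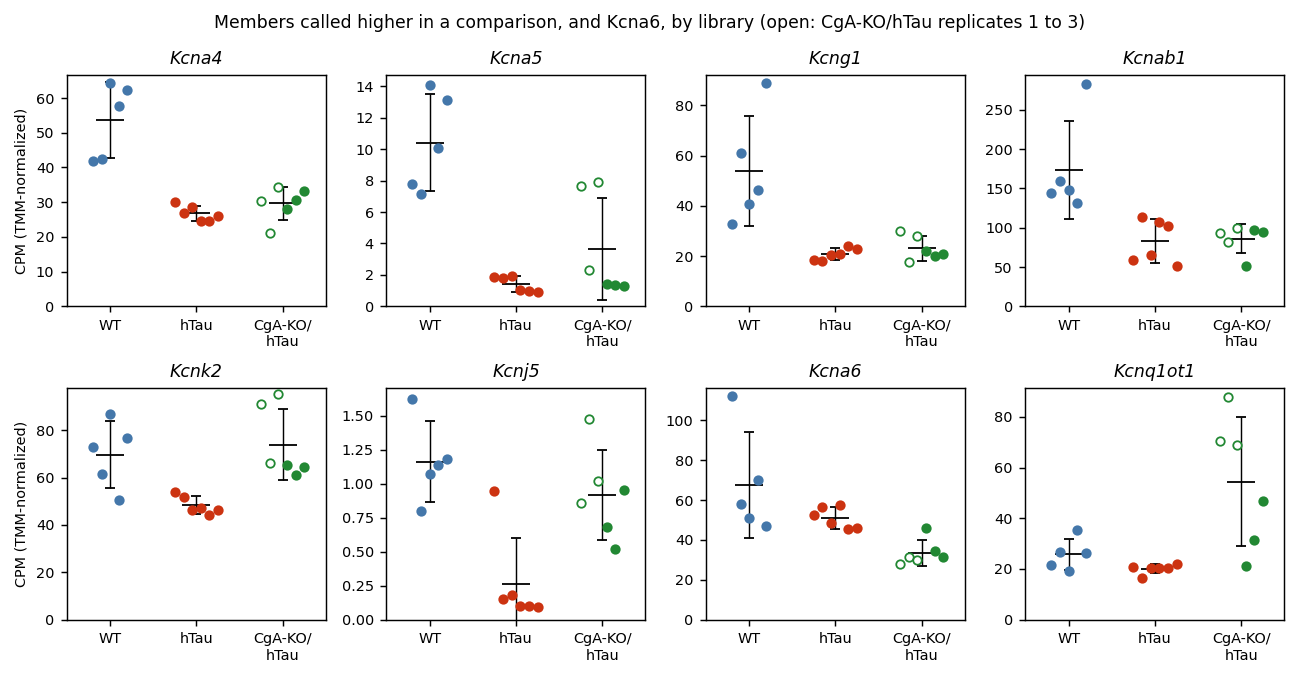
TMM-normalized CPM (y axis, from 0) in each library for 7 members called higher in at least 1 comparison and for Kcna6, with the mean and SD of each genotype in black and open symbols for CgA-KO/hTau replicates 1 to 3. WT libraries stand above both other genotypes for Kcna4 and Kcng1, and Kcnq1ot1 is highest in CgA-KO/hTau replicates 1 to 3 (68.9 to 87.9 CPM).

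Comparing CgA-KO/hTau directly with WT, 1 member was called higher (Kcnq1ot1) and 6 lower (Kcna4, Kcna6, Kcnab1, Kcnd1, Kcnd2 and Kcng1), where 3.56% and 2.89% of all genes were called (6.46% together). Libraries did not overlap for 4 of the lower members, Kcna4, Kcna6, Kcnab1 and Kcng1, against 1.54% of all genes, and for 0 on the higher side, against 2.06%. Lower calls numbered 3 without WT replicate 5, where 1.26% of all genes were called lower. The call of Kcnq1ot1 was lost without WT replicates 1, 3 or 5 or without any of CgA-KO/hTau replicates 1 to 3, and a second member joined it without WT replicate 4 or any of CgA-KO/hTau replicates 4 to 6. For Kcnab1 the log2 fold change was -1.01 ± 0.24 (edgeR adjusted p = 0.0193), lost without WT replicate 5 (adjusted p = 0.0745).

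Striatum sums above hTau were strong in CgA-KO/hTau replicates 1 and 3 (3407 and 3470 CPM) and weaker in replicate 2 (841 CPM). Replicates 1 to 3 and 4 to 6 were therefore set against hTau separately, a split chosen after seeing the data. Because replicates 1 to 3 were also those with Ddx3y, the split is not one by the striatum signal alone. In replicates 1 to 3 all libraries lay below all hTau libraries for 38 of 87 members (19.5% of all genes did so), among them the 13 members called lower, which these libraries helped to choose. In replicates 4 to 6, which had striatum markers no higher than hTau, this held for 17 of 87 members (7.08% of all genes) and for 10 of the 13, the exceptions being Kcna6, Kcnj12 and Kcnk12. These libraries too were among those that chose the 13, and of all 974 genes called lower 62.6% lay below hTau in replicates 4 to 6, so that the count of 10 is a description and no further support. On the higher side, Kcnk2 alone of the 4 members called higher lay above all hTau libraries in replicates 4 to 6, where 6.95% of all genes and 45.3% of the 1268 genes called higher did so. Values shrank toward 0 for Kcnc1 (-0.34 ± 0.10), Kcnh1 (-0.37 ± 0.12) and Kcns3 (-0.42 ± 0.20). They moved less for Kcnj11 (-0.55 ± 0.18), Kcnd1 (-0.47 ± 0.16) and Kcnn1 (-0.51 ± 0.16). With these 3 libraries alone no member was called in either direction in edgeR. There, 0.974% and 0.491% of 23618 tested genes were called higher and lower, 6 and 20 of 89 tested members had an unadjusted p under 0.05 (9.58% and 8.8% of all genes), and the member median was -0.21 against -0.03 over all genes.

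**Figure D5:**
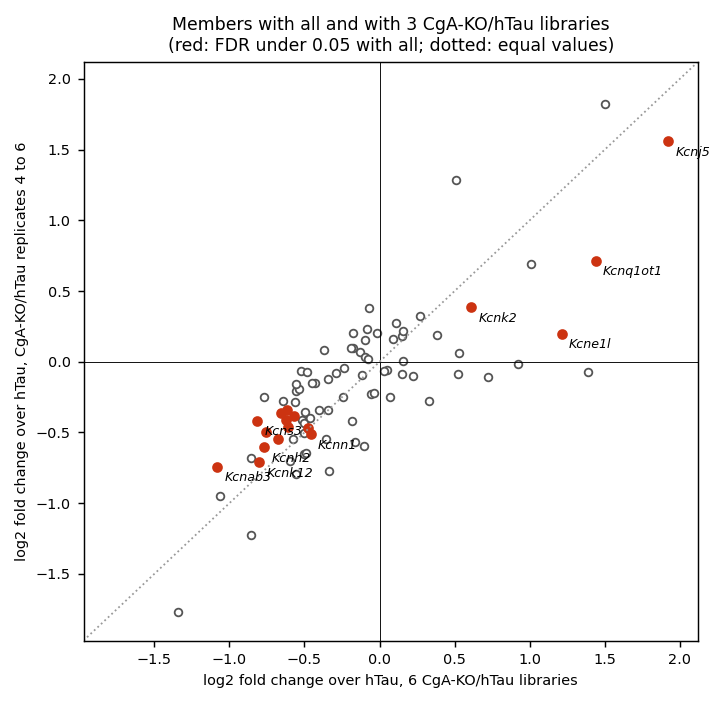
log2 fold change over hTau with all 6 CgA-KO/hTau libraries (x axis) and with replicates 4 to 6 alone (y axis), 1 point for each member tested in both fits. Red points were called with all 6 libraries, and the dotted line marks equal values. The red points keep their sign, and most lie closer to 0 on the y axis, as Kcne1l does (1.21 against 0.20), whereas Kcnn1 lies slightly further from 0 (-0.46 against -0.51).

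A fit over all 17 libraries with the striatum marker score as a covariate gave another set of counts. For WT over hTau, 12 members were called higher and 5 lower, against 10.6% and 7.26% of all genes. Only 2 of the 8 higher and 2 of the 11 lower calls were among them, Kcna4, Kcng1 and Kcnab2 included. Most of the calls without the covariate were thus lost, and most of those with it were other members. As WT and hTau did not overlap in the summed striatum markers, these shifts cannot tell striatum content from genotype. For CgA-KO/hTau over hTau, 4 members were called higher and 7 lower, against 4.28% and 2.99% of all genes, with 2 of the 4 higher and 6 of the 13 lower calls kept, and Kcnc1, Kcnd1, Kcnh1, Kcnh2, Kcnj11, Kcnk2 and Kcnq1ot1 were among those that kept their calls. For CgA-KO/hTau over WT, 5 were called higher and 19 lower, against 9.88% and 11.9% of all genes. The 1 higher call and 4 of the 6 lower calls without the covariate were among these, so that most of them were other members.

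Genes that work with the channels were read from 2 lists. Beside the shares of all genes called higher and lower, 3.95% and 1.95% for WT and 5.5% and 4.22% for CgA-KO/hTau over hTau, the counts of these short lists are descriptions. Of 25 tested partner genes (anchoring, trafficking and accessory proteins), 0 were called higher and 4 lower in WT than in hTau. The 4 were Abcc8, Lgi3 (a Kv1-associated secreted protein, -0.52), Lrrc38 (a BK channel gamma subunit, -1.53) and Vapb (-0.32), with edgeR adjusted p of 0.0204, 0.0226, 0.00516 and 0.0255. In CgA-KO/hTau 1 was called higher (Stac3, 1.61) and 3 were called lower (Abcc8, Lgi3 at -0.68 and Lrrc38 at -1.09). The list medians were -0.07 and -0.17, beside -0.01 and 0.03 over all genes. Of 17 potassium pump and cotransporter genes, 2 were called higher in WT than in hTau, the exchangers Slc24a3 (0.33) and Slc24a4 (0.64), and 1 lower. In CgA-KO/hTau 0 were called higher and 2 lower, among them Slc12a5, the neuronal chloride extruder KCC2 (-0.55).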

How the data were processed

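Polyadenylated RNA from prefrontal cortex of 17 mice (5 WT, 6 hTau, 6 CgA-KO/hTau) was sequenced in paired ends. Per the labels, the authors processed the reads with FastQC, Trimmomatic 0.39, STAR 2.7.10b and StringTie 1.3.6 on mm10, and used DESeq2 1.42.0. The annotation release and strand setting are not given in the sources used here. The deposited values were raw gene counts, derived from StringTie coverage, with about 3 counts for each fragment, so that counting error is larger than the totals (8838334 to 227651681 per library) imply.

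Counts were fitted in R 4.3.3 with edgeR 4.0.16 (TMM, filterByExpr, quasi-likelihood test, 1 mean per genotype, all 17 libraries), and p-values were Benjamini-Hochberg adjusted over 23062 genes and called under 0.05. Values printed are TMM-normalized CPM, and levels between genes are CPM per kb of exon. Gene positions and exon lengths came from GENCODE M21 (GRCm38), matched by Ensembl identifier for 97 of 97 members. DESeq2 1.42.0, limma 3.58.1 (voom with sample quality weights), other filters, libraries left out and covariates served as alternatives, and the fits were tested on simulated data. Members called in a comparison and the most abundant member per kb of each subfamily are named, except a few genes that are not reported here. The members and lists were chosen with earlier results of these data known. Replicates were separate mice per the study's methods. Paired replicate numbers were checked and did not pair the samples. The closest libraries, hTau replicates 4 to 6 and CgA-KO/hTau replicates 1 and 3, differed from each other by 1.86 to 2.73 times the counting error over 3761 genes with at least 500 counts per library, and were kept as separate samples. Promoter windows were taken from RefSeq (GRCm38.p6).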

Additional observations from a re-analysis of the deposited data

Results flagged for a closer look

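Within a genotype, a library whose CPM stood apart from the others by Dixon's test at 95% was found in 13 of 123 combinations of named member and genotype, where chance alone gives about 6.15. WT replicate 4, the shallowest library, accounted for 4 of them, with the lowest Kcnf1 (79.96 CPM), Kcnip3 (90.8 CPM) and Kcnj12 (7.07 CPM) and the highest Kcnma1 (698.6 CPM) of its group. WT replicate 5 had the highest Kcnab1 (283.2 CPM) and Kcne2 (5.8 CPM). hTau replicate 2 had the highest Kcnab3 (69.7 CPM) and Kcnh1 (210 CPM) and the lowest Kcnq1ot1 (16.6 CPM) of its group, and hTau replicate 1 the highest Kcnf1 (173.9 CPM) and Kcnj5 (0.947 CPM). Among the CgA-KO/hTau libraries, replicate 6 had the lowest Kcnab2 (197.4 CPM), and replicate 4 the highest Kcna6 (46.1 CPM).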

How the results depend on the processing

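Counts of called members are given in the order WT over hTau (higher, lower), CgA-KO/hTau over hTau (higher, lower), CgA-KO/hTau over WT (higher, lower), and were 8, 11, 4, 13, 1 and 6. Shares of all genes with an adjusted p that were called follow in the same order. With DESeq2's size factors the counts were the same (4.08%, 2.02%, 6.01%, 4.02%, 3.82% and 2.8%). DESeq2 gave 7, 13, 6, 19, 2 and 8 (5.67%, 4.14%, 9%, 6.24%, 5.77% and 4.11%). Limma voom with sample quality weights gave 13, 26, 6, 32, 2 and 11 (9.1%, 8.1%, 10.3%, 12.4%, 5.07% and 5.58%), and fits of only the 2 groups compared gave 11, 17, 4, 17, 0 and 4 (5.97%, 4.48%, 7.1%, 6.04%, 0.738% and 0.562%). No filter on low counts gave 6, 11, 3, 12, 1 and 4 (1.81%, 0.825%, 1.86%, 2.06%, 1.26% and 1.28%). At least 10 counts in every library gave 7, 13, 5, 14, 1 and 6 (6.4%, 3.5%, 8.9%, 5.85%, 5.3% and 4.06%). Counts divided by 3 gave 8, 13, 6, 17, 1 and 6 (5.58%, 2.94%, 9.27%, 6.05%, 5.24% and 3.93%). With the Ddx3y level as a covariate they were 7, 11, 4, 13, 1 and 7 (4.22%, 2.33%, 5.1%, 4.44%, 4.13% and 3.53%). With the striatum marker score as a covariate they were 12, 5, 4, 7, 5 and 19, where 10.6%, 7.26%, 4.28%, 2.99%, 9.88% and 11.9% of all genes were called. In that fit 2 genes reversed for WT over hTau, Kcnk2 at -0.0175 and Kcns3 at 0.0122, a comparison in which it cannot separate the score from genotype. Averaging the near-identical libraries gave 4, 0, 0, 0, 0 and 4 (1.58%, 0.339%, 0.46%, 0.237%, 1.38% and 1.2%). At an unadjusted p under 0.05 in edgeR there were 10, 18, 6, 23, 2 and 13 (8.67%, 6.92%, 10.1%, 7.89%, 9.28% and 8.19% of all genes). In 2 alternatives chosen after seeing the data, CgA-KO/hTau replicates 4 to 6 only gave 10, 17, 0, 0, 0 and 3 (5.03%, 4.17%, 0.974%, 0.491%, 1.85% and 2.31%), and WT replicates 1 to 3 only gave 4, 1, 4, 20, 0 and 4 (1.55%, 0.285%, 7.01%, 6.95%, 1.64% and 1.54%). Leaving out 1 library at a time gave ranges of 4 to 8, 1 to 13, 2 to 7, 5 to 21, 0 to 2 and 3 to 8. The shares of all genes then ranged over 2.23% to 4.58%, 0.56% to 2.64%, 2.69% to 9.11%, 1.76% to 8.15%, 1.5% to 4.75% and 1.26% to 4.52%. A fit with the replicate number as a block gave 5, 2, 3, 3, 0 and 4 (2.22%, 0.637%, 1.68%, 1.15%, 1.41% and 1.25%), although same-numbered libraries correlated at -0.09 to 0.41 in their deviations, and their numbers were not taken as pairs. The cause of these shifts was not tested.

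Calls of scarce members (Kcne2, Kcnj5, Kcne1l) rest on few reads. The common biological coefficient of variation was 0.316, which limits how small a difference can be called with 5 or 6 libraries per genotype.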
